A study of Mus musculus with 13 samples.

Results

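The mouse actin family comprises 6 genes, Acta1, Actc1, Acta2, Actg2, Actb and Actg1, and their transcripts were followed through 13 whole-heart RNA-seq libraries. The genes were chosen by name, as the complete set of conventional actins, and were found by Ensembl gene ID among the 55471 genes of the count table. All 6 were detected, and all 6 were among the 15000 genes that had enough counts to be tested.

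The study measured bulk poly(A) RNA of hearts of wild-type mice and of R502W mice, in 3 groups. R502W is a substitution in cardiac myosin-binding protein C (cMyBP-C, gene Mybpc3), a thick-filament protein in which variants cause hypertrophic cardiomyopathy, and mavacamten is a drug that inhibits the cardiac myosin motor. The groups were untreated wild-type hearts (WT control, n = 5), untreated R502W hearts (R502W control, n = 4) and hearts of R502W mice that drank mavacamten at 2.5 mg/kg/day for 21 weeks (R502W mavacamten, n = 4). No group of wild-type mice on the drug was among the samples. The design text put the mice at 24 weeks of age, whereas RNA extraction was described for hearts aged 3 and 18 weeks, and the labels did not give whether the R502W mice carried 1 or both altered copies. Libraries held 15350622 to 19361103 expected counts. The level of Mybpc3 RNA does not read out the substitution, so the genotype labels could not be checked from the counts.

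Actin monomers assemble into the thin filaments on which myosin pulls and into the filaments of the cytoskeleton. The sarcomere of striated muscle is built from the skeletal isoform, encoded by Acta1, and the cardiac isoform, encoded by Actc1. The adult heart relies on Actc1, and Acta1 is known as an isoform of the fetal and the stressed heart. Acta2 and Actg2 encode the smooth muscle isoforms of blood vessels and of visceral organs, and Actb and Actg1 encode the cytoplasmic isoforms of nearly all cells.

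The 6 coding sequences are close relatives, which bears on how reads are assigned to them. Their pairwise identity ran from 81.5% to 88.7%, with 86.2% between Acta1 and Actc1. The first 60 coding bases of this sarcomeric pair are shown because the results turn on telling its members apart, with capitals at the 9 bases of Acta1 that differ from Actc1 (GENCODE M21 transcripts, GRCm38).
Acta1 coding start: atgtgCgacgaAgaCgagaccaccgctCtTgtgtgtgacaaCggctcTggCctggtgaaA
Actc1 coding start: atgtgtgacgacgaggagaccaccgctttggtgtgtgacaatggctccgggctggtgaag

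Of all 50-base windows of the Acta1 transcripts, 2.22% were identical to a window in another gene, and none of the Actc1 or Actg2 windows were. The share was 0.352% for Acta2 and 14.2% for Actb. For Actg1 it was 56.7%, most of it shared with processed pseudogenes such as Gm12715 and Gm8399, so the Actg1 counts are less certain than the others. Only the genes sharing the most windows with each actin were listed, and 12 of them were pseudogenes. None of these 12 exceeded 1 CPM in any library, and the highest held 16.65 expected counts. CPM is the count of a gene relative to the scaled total of its library. Of the Actb windows, 179 were shared with Lrrc58, a protein-coding gene that reached 59.89 CPM. The expected counts of 5 of the 6 actins were whole numbers in every library, and Actg1 had a fractional count in 1 of 13. Gm20388 overlaps Acta1 on the opposite strand without sharing exons and stayed at or below 40.2 CPM.

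Serum response factor (SRF) controls actin genes through CArG boxes, and the 250 bases upstream of the start sites of Acta1 and Actc1 are printed because the results turn on this sarcomeric pair (RefSeq, GRCm38.p6, minus strand, written 5′ to 3′ as transcribed, CArG box in capitals). The Acta1 stretch lies at chr8:123894776-123895025 and the Actc1 stretch at chr2:114052876-114053125. Start sites here are those of RefSeq. By the GENCODE annotation Actc1 spans chr2:114047282-114053548, so the Actc1 stretch lies inside that annotated gene.
Acta1 promoter: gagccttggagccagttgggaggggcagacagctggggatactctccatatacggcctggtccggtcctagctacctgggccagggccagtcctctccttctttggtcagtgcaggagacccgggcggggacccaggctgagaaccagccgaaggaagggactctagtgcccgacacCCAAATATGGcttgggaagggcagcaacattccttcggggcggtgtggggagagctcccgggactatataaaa
Actc1 promoter: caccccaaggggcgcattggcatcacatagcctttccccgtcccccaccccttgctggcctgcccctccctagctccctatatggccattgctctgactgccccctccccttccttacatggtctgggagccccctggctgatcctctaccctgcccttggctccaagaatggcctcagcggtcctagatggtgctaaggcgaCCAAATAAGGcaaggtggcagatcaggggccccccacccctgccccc

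The box began 73 bases before the start site in Acta1 and 47 bases before it in Actc1. Among the other actins with a sequence in the RefSeq table, the Actg1 stretch held a box at 90 bases before the start and the Acta2 stretch held none. Only the strict motif was searched (CC, then 6 bases that are each A or T, then GG), so elements with 1 base off it were not counted, and no match in Acta2 says nothing about binding there. The motif reads the same on both strands, and it was present in 482 of 32851 mouse promoter stretches of this length (1.47%). These matches describe letters in the sequence and are not evidence of binding.

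The sarcomeric pair comes first. Acta1 (ENSMUSG00000031972, chr8:123891769-123894751, minus strand) was the only actin that differed beyond the test threshold between R502W and wild-type hearts. Its 5 WT control libraries held 120.3, 106.2, 173.8, 116.9 and 157.9 CPM, and the 4 R502W control libraries held 1367.6, 1463.3, 1230.5 and 1243.1 CPM. The groups did not overlap, and the lowest R502W library was several times the highest WT library. The mean rose from 135 ± 29.2 CPM (SD, n = 5) to 1326.1 ± 110.4 CPM (SD, n = 4), a log2 fold change of 3.30 ± 0.27 (SE, 95% interval 2.71 to 3.88), or 9.82-fold (edgeR's quasi-likelihood test, Benjamini-Hochberg adjusted p = 2.55e-05). By fold change Acta1 ranked 11th from the top of the 15000 genes tested, and by p it ranked 5th.

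Under mavacamten the Acta1 libraries held 1390.1, 610.6, 471.2 and 621.2 CPM. Replicates 2, 3 and 4 lay below every R502W control library, while replicate 1 lay within their range. The treated mean was 773.3 ± 416.9 CPM (SD, n = 4). The log2 fold change against R502W control was -0.78 ± 0.27 (SE, 95% interval -1.365 to -0.19), which did not pass the test (edgeR's quasi-likelihood test, adjusted p = 1). Of all genes tested, 0% passed edgeR's test in this comparison, while 525 genes had an unadjusted p under 0.05 and DESeq2 called 6. Without mavacamten replicate 1 the log2 fold change was -1.22 (edgeR adjusted p = 0.0764).

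Mavacamten replicate 1 was also 1 of 3 libraries with over 100 CPM of airway and lung genes, a list of 6 genes such as Scgb1a1 and Cyp2f2. The list summed to 152.6 CPM there, 385.8 CPM in WT control replicate 2 and 614.1 CPM in WT control replicate 3, against at most 25.8 CPM in the others. Scgb1a1 reached 349.4 CPM and Cyp2f2 207 CPM in WT control, while Sftpc, also listed, was at most 0.2251 CPM in any library. With these 3 libraries left out together, a choice made after the data were seen, Acta1 was lower under mavacamten by a log2 fold change of -1.22 ± 0.14 (SE), and this passed the test (edgeR adjusted p = 0.0136), as 1 of 7 genes called. That call rests on 3 treated libraries and on leaving out the treated library in which Acta1 was highest.

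All 4 treated libraries remained above all WT control libraries for Acta1. The log2 fold change of R502W mavacamten against WT control was 2.52 ± 0.265 (SE, 95% interval 1.95 to 3.09), or 5.73-fold (edgeR's quasi-likelihood test, adjusted p = 0.000297). The treatment comparison shares the R502W control libraries with the genotype comparison, and both comparisons with wild type share the WT libraries, so their values are not independent of each other.

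Actc1 (ENSMUSG00000068614, chr2:114047282-114053548, minus strand), the main actin of the adult heart, held 9695.6, 6469.8, 7132.9, 7681.6 and 8074.8 CPM in WT control. R502W control held 8754.8, 8822.5, 11786.7 and 10431.1 CPM, and R502W mavacamten 8691.3, 12213.2, 11090.7 and 8099.5 CPM. All 3 groups overlapped, with 2 of 4 libraries of each R502W group above the wild-type range. The log2 fold change of R502W control against WT control was 0.35 ± 0.16 (SE, 95% interval 0.005 to 0.69) and missed the threshold (edgeR adjusted p = 0.167), and that of R502W mavacamten against WT control was 0.36 ± 0.16 (SE, edgeR adjusted p = 0.175). Between the R502W groups it was 0.01, with a 95% interval of -0.35 to 0.375.

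Other cardiomyocyte genes were read beside Actc1, and their part in its values was not tested. The summed level of 10 cardiomyocyte markers ran from 42199.9 to 60730.5 CPM in WT control, from 61469.9 to 68693.1 CPM in R502W control and from 56679.4 to 76802.6 CPM in R502W mavacamten. Myh6 was by far the largest part of this sum, so the sum mostly follows that gene. Its mean was 23497.4 CPM in WT control and 33185.0 CPM in R502W control, a difference that was not called (edgeR adjusted p = 0.057). Of these markers 3 of 10 rose in R502W control (Ttn, Ryr2 and Mybpc3) and none fell, where 12.4% of all genes tested were called. Estimates below 0 that did not pass the test were those of Tnni3 (-0.32), Pln (-0.19), Myl2 (-0.14) and Tnnt2 (-0.10). The lowest sums were in WT control replicates 2 and 3, the libraries with airway genes, where Actc1 was also lowest. Without the 3 airway-gene libraries the Actc1 log2 fold change of R502W control against WT control was 0.20 ± 0.18 (SE, edgeR adjusted p = 0.557). In bulk tissue, fewer cells of a type and less RNA per cell cannot be told apart.

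The plot of actin levels per library shows the gap in Acta1 beside the overlap of every other isoform.

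**Figure D1:**
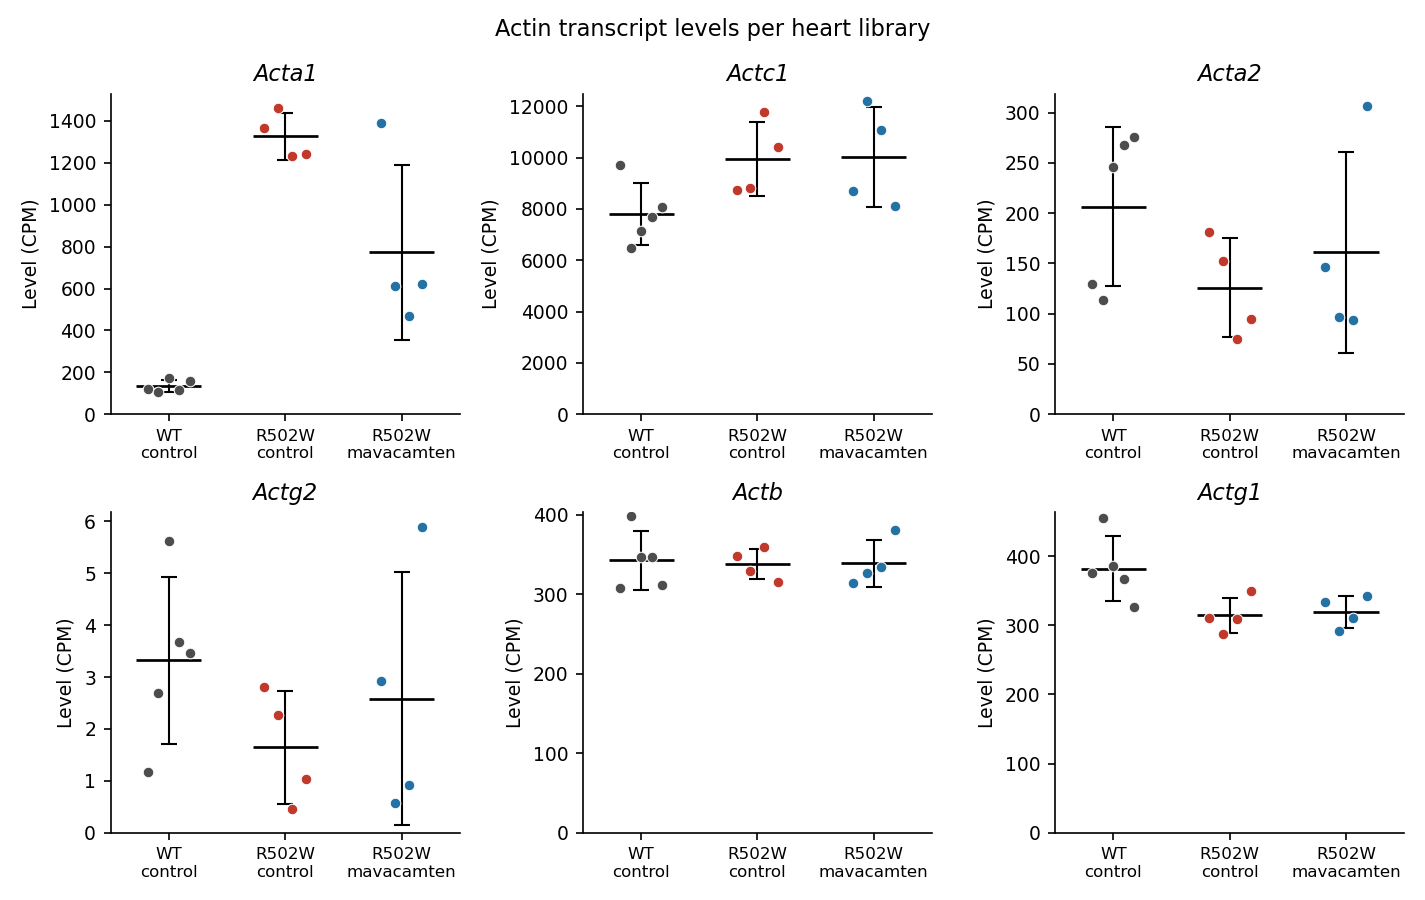
Level of each actin gene in CPM (y axis, linear, from 0) in every library of the 3 groups (x axis); points are libraries, the long bar is the mean and the whiskers are 1 SD. The 4 R502W control libraries sit between 1230.5 and 1463.3 CPM for Acta1, all above the WT range of 106.2 to 173.8 CPM, and 1 of 4 mavacamten libraries sits among them at 1390.1 CPM.

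Acta1 is a defining gene of skeletal muscle, so RNA of that tissue was looked for in the same libraries. The skeletal myosin Myh4 was at 0 in 12 of 13 libraries and the myogenic factor Myf6 at 0 in all 13. Myh1 reached at most 0.26 CPM and the fast myosin light chain Mylpf at most 1.2 CPM. Other listed markers were found in every library at low levels, among them Atp2a1 at 1.28 to 8.27 CPM, Actn3 at 0.54 to 3.96 CPM and Tnni2 at 0.17 to 2.29 CPM. Of the 12 markers 6 had enough counts to be tested, and 1 rose in R502W control, where 12.4% of all genes tested were called. It was Mybpc2, the fast skeletal paralogue of myosin-binding protein C, with 16.5 ± 2.94 CPM (SD, n = 5) in WT control, 51.5 ± 7.72 CPM (SD, n = 4) in R502W control and 33.6 ± 14.96 CPM (SD, n = 4) in R502W mavacamten (log2 fold change of R502W control against WT control 1.64 ± 0.24 SE, edgeR adjusted p = 0.00133). The marker sum ran from 20.97 to 30.76 CPM in WT control, from 45.85 to 67.41 CPM in R502W control and from 25.99 to 55.93 CPM in R502W mavacamten, and Mybpc2 made up most of it.

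Per kilobase of exon, which allows genes to be compared, Acta1 supplied 1.82% ± 0.46 (SD, n = 5) of sarcomeric actin transcripts (Acta1 plus Actc1) in WT control and 12.5% ± 2.37 (SD, n = 4) in R502W control. The WT libraries gave 1.29%, 1.70%, 2.50%, 1.58% and 2.02%, and the R502W control libraries 14.1%, 14.9%, 9.91% and 11.2%. The mavacamten libraries gave 14.4%, 5.00%, 4.28% and 7.48%, with a mean of 7.80% ± 4.62 (SD, n = 4). The share was thus higher in every R502W library than in every WT library, and in 3 of 4 treated libraries it was below the range of R502W control. No test was made on shares.

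The sum of both sarcomeric actins was 7946.0 ± 1213.1 CPM (SD, n = 5) in WT control, 11274.9 ± 1354.2 CPM (SD, n = 4) in R502W control and 10796.9 ± 1781.0 CPM (SD, n = 4) in R502W mavacamten. The lowest R502W control library, at 10122.4 CPM, lay above the highest WT library, at 9816.0 CPM. The treated libraries spanned 8720.7 to 12823.8 CPM and overlapped both.

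**Figure D2:**
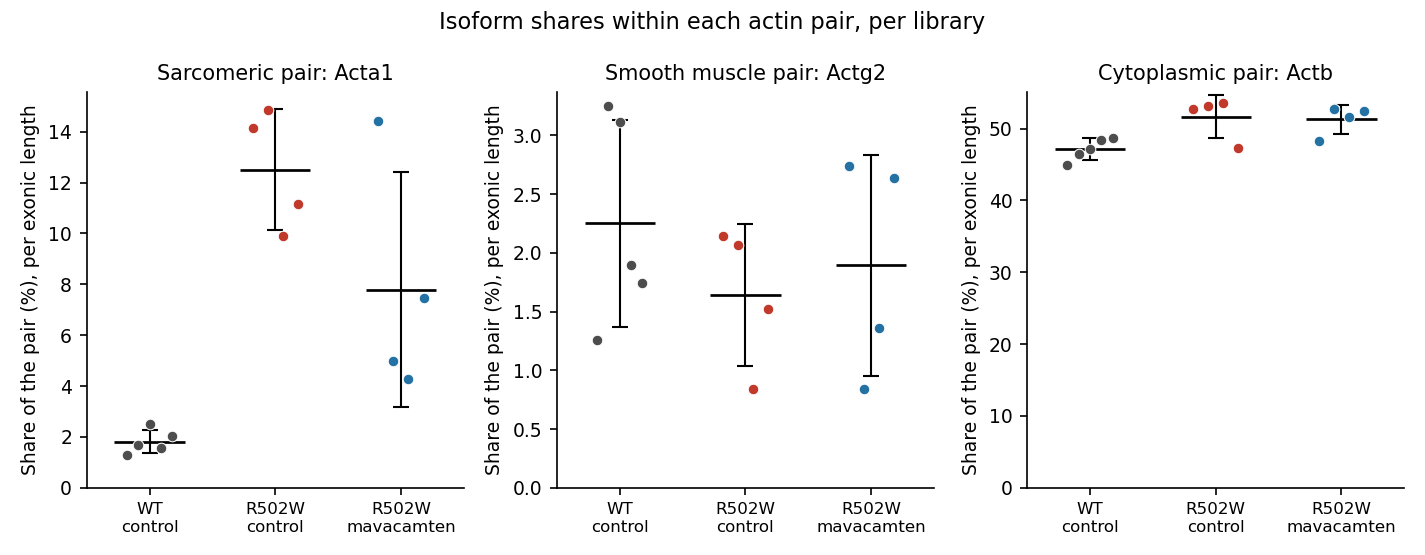
Share of each actin pair supplied by 1 of its members, in percent per exonic length (y axis, from 0), for every library of the 3 groups (x axis); points are libraries, the long bar is the mean and the whiskers are 1 SD. Acta1 supplies 1.29% to 2.50% of the sarcomeric pair in WT control and 9.91% to 14.9% in R502W control, while the Actg2 shares overlap between groups.

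The smooth muscle pair showed no difference between groups that passed the test, but it varied widely between libraries of each group. Acta2 (ENSMUSG00000035783, chr19:34241090-34255590, minus strand), the actin of vascular smooth muscle, held 129.5, 113.4, 246.3, 268.1 and 275.6 CPM in WT control. It held 180.9, 152.2, 75.0 and 94.6 CPM in R502W control, and 146.5, 96.6, 94.0 and 306.7 CPM in R502W mavacamten. The groups overlapped, and the highest library of all was mavacamten replicate 4. For Acta2 the log2 fold change of R502W control against WT control was -0.72 ± 0.39 (SE, 95% interval -1.56 to 0.125, edgeR adjusted p = 0.244). Under mavacamten it was 0.36 ± 0.41 (SE, edgeR adjusted p = 1) against R502W control, and it was -0.16 without mavacamten replicate 4.

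Actg2 (ENSMUSG00000059430, chr6:83512905-83536265, minus strand), the visceral isoform, was near the limit of detection with 8 to 109 expected counts per library. WT control held 1.17, 2.70, 5.61, 3.67 and 3.47 CPM, R502W control 2.81, 2.28, 0.450 and 1.04 CPM, and R502W mavacamten 2.93, 0.579, 0.921 and 5.89 CPM. These ranges overlapped as well, and the highest value was again in mavacamten replicate 4. The log2 fold change of R502W control against WT control was -1.03 ± 0.65 (SE, 95% interval -2.42 to 0.37, edgeR adjusted p = 0.316). Against R502W control, mavacamten gave 0.675 ± 0.68 (SE), and -0.12 without replicate 4.

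Acta2 and Actg2 moved together from library to library. Profiles were compared as log2(CPM + 1) minus the mean of the gene, and likeness was the root mean square difference over the 13 libraries, where 0 is an identical profile. The 2 smooth muscle actins differed by 0.295, and Acta2 was the second nearest of 13696 genes to Actg2. The genes nearest to Acta2 were Lmod1 (0.226), a smooth muscle leiomodin that nucleates actin filaments, Susd5 (0.256) and Tagln (0.262), a calponin-family actin-binding protein of smooth muscle. Nearest to Actg2 were Ccdc3 (0.236), Acta2 and Net1 (0.295). All genes of a library share its depth and tissue sample, and these distances are descriptions without a test.

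Some of the other smooth muscle genes were high in the same library. Myh11, the smooth muscle myosin heavy chain, reached 219.7 CPM in mavacamten replicate 4, while the other treated libraries held 52.1 to 81.7 CPM. Tagln held 113.9 CPM there against 20.6 to 61.1 CPM, and Cnn1, encoding calponin, 34.4 CPM against 1.98 to 10.5 CPM. Smtn, encoding smoothelin, was instead lowest of the treated libraries there, at 149.2 CPM against 152.9 to 198.8 CPM. The Acta2 profile differed by 0.304 from Myh11, 0.465 from Cnn1 and 0.708 from Smtn, and by 0.674 from Kcnj8, 0.729 from Rgs5 and 0.831 from Notch3, which mark pericytes and other mural cells.

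Summed over 11 vascular smooth muscle and mural markers, the level was 598.7 to 997 CPM in WT control, 773.6 to 995.3 CPM in R502W control and 812.7 to 1034.4 CPM in R502W mavacamten. By median level Rgs5 and Smtn, whose profiles were far from that of Acta2, were the largest members of this sum. For Rgs5 the median library held 291.4 CPM in WT control and 343.8 CPM in R502W control. In R502W control 3 of the 11 rose (Notch3, Cspg4 and Myocd) and none fell, where 12.4% of all genes tested were called. Of the 11, 6 had a log2 estimate above 0 in R502W control against WT control, and the median estimate was 0.037. Contractile members with estimates below 0 that did not pass the test included Cnn1 (-1.03 ± 0.71, SE), Tagln (-0.91 ± 0.51, SE) and Lmod1 (-0.57 ± 0.46, SE). For Smtn, also contractile, the median library held 162.7 CPM in WT control and 162.2 CPM in R502W control. Of the 5 visceral markers, Nkx2-3 was at 0 in 11 of 13 libraries, and Hhip, Foxf1 and Pcp4 stayed at or below 1.35 CPM. The other, Synpo2, was abundant at 91.8 to 151.4 CPM in WT control and 163.8 to 194 CPM in R502W control, a rise of 0.445 ± 0.12 on the log2 scale (SE, edgeR adjusted p = 0.0295). How far the amount of vessel wall in each library contributed to the Acta2 and Actg2 values was not tested.

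**Figure D3:**
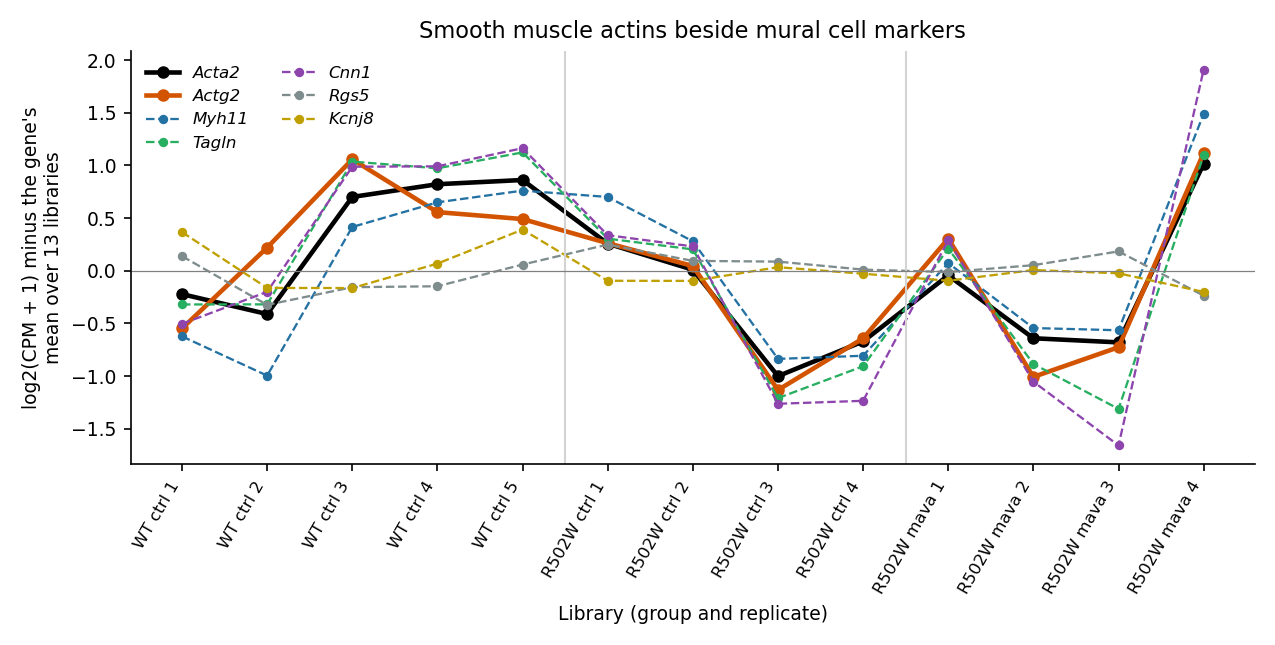
Profiles of Acta2, Actg2, 3 smooth muscle contractile genes (Myh11, Tagln, Cnn1) and 2 mural markers (Rgs5, Kcnj8) as log2(CPM + 1) minus the mean of each gene over 13 libraries (y axis), for each library by group and replicate (x axis); lines only join the values of 1 gene, and replicates have no order. Acta2 lies at 1.016 and Actg2 at 1.118 in mavacamten replicate 4, and at -1.001 and -1.132 in R502W control replicate 3.

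The cytoplasmic pair varied least, with coefficients of variation of 5.69% to 12.3% within groups. Actb (ENSMUSG00000029580, chr5:142903115-142906754, minus strand), a common reference gene, held 308.5, 399.1, 347.3, 347.0 and 311.8 CPM in WT control, 348.2, 329.4, 359.1 and 315.9 CPM in R502W control and 314.1, 326.7, 334.6 and 380.9 CPM in R502W mavacamten. The group ranges overlapped. For Actb the log2 fold change of R502W control against WT control was -0.02, with a 95% interval of -0.21 to 0.175 (edgeR adjusted p = 0.913). Under mavacamten it was 0.00 (95% interval -0.20 to 0.21) against R502W control and -0.02 (95% interval -0.21 to 0.18) against WT control. With the trend of fold change on gene length removed, the first and last of these values turned to 0.07 and 0.08, both smaller than the SE of 0.09, and they were also above 0 without the 3 airway-gene libraries.

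Actg1 (ENSMUSG00000062825, chr11:120345690-120348542, minus strand), the other cytoplasmic isoform, held 375.8, 455.4, 385.1, 367.6 and 325.9 CPM in WT control. R502W control held 310.3, 288.0, 309.2 and 349.4 CPM, and R502W mavacamten 333.5, 291.1, 310.7 and 342.2 CPM. In 3 of 4 R502W control libraries and 2 of 4 treated libraries the level lay below all WT libraries. The log2 fold change of R502W control against WT control was -0.28 ± 0.10 (SE, 95% interval -0.49 to -0.07) and missed the threshold in edgeR's quasi-likelihood test (adjusted p = 0.074), while DESeq2 gave -0.30 with an adjusted p of 0.0148. Against WT control, R502W mavacamten gave -0.26 ± 0.10 (SE, edgeR adjusted p = 0.116), while DESeq2 gave -0.28 with an adjusted p of 0.0332. The R502W groups differed by 0.02 (95% interval -0.20 to 0.24).

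Per exonic length, Actb supplied 47.1% ± 1.53 (SD, n = 5) of the cytoplasmic pair in WT control, 51.7% ± 2.94 (SD, n = 4) in R502W control and 51.3% ± 2.04 (SD, n = 4) in R502W mavacamten. In WT control all 5 shares lay between 44.9% and 48.7%. In R502W control 3 of 4 shares were 52.7%, 53.2% and 53.5%, and replicate 4 was at 47.3%, inside the WT range. The treated libraries gave 48.3%, 52.7%, 51.65% and 52.5%.

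In the genotype comparison 1 of the 6 actins was called, and it was higher, against 12.4% of all genes tested called in either direction, 8.63% called higher and 3.75% called lower. The median log2 fold change of the 6 was -0.15, beside -0.01 over all genes tested. At an unadjusted p under 0.05 it was 3 of 6 (Acta1, Actc1 and Actg1), against 29.1% of all genes, and the groups did not overlap for 1 of 6, against 17.8%. Under mavacamten 0 of 6 were called and 1 of 6, Acta1, had an unadjusted p under 0.05, against 3.5% of all genes. The groups overlapped for all 6, against 2.87% of genes without overlap. In R502W mavacamten against WT control 1 of 6 was called, again Acta1, against 8.21% in either direction, 5.93% called higher and 2.29% called lower.

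**Figure D4:**
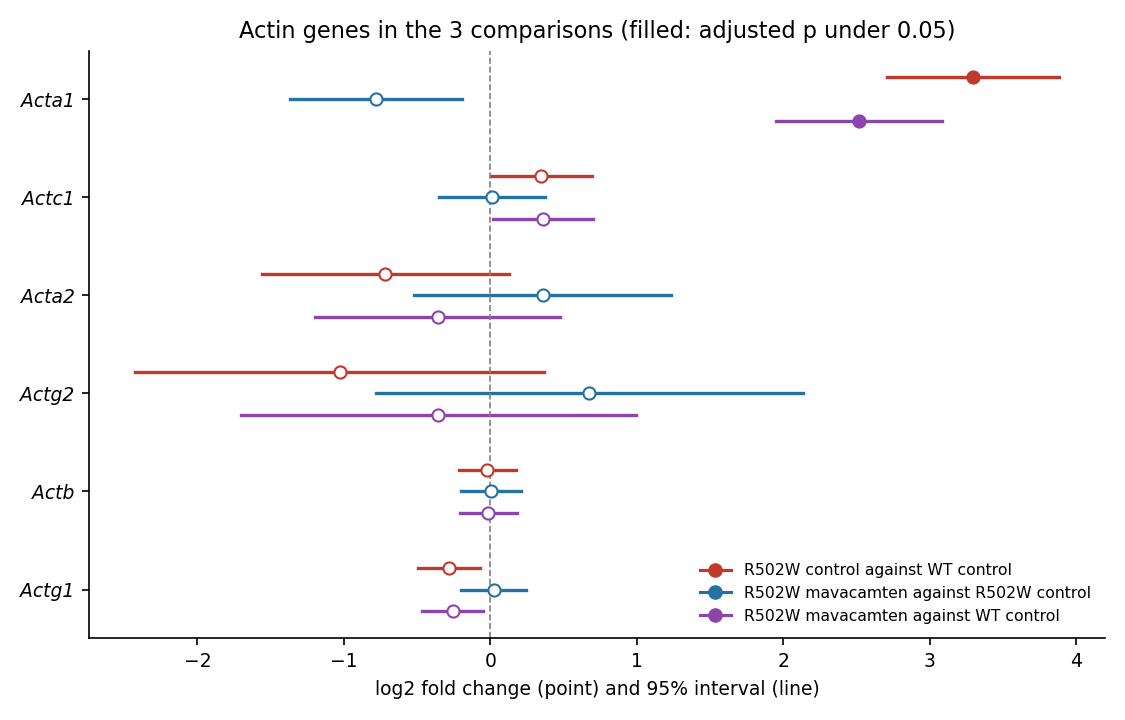
Log2 fold change (x axis) of each actin gene (y axis) in the 3 comparisons, as the edgeR estimate (point) with its 95% interval (line); filled points passed an adjusted p of 0.05. Acta1 passes in both comparisons with WT control, at 3.30 and 2.52, and no actin passes in R502W mavacamten against R502W control, which shares its control libraries with the genotype comparison.

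The 6 actins were also ordered by level per exonic length. This length pools all annotated exons of a gene (2679 bases for Actb, 2658 for Actg1 and 1536 for Acta1) and can exceed that of a single transcript. A shorter length would raise a gene's level, and the order and the shares of all 6 genes are given for the pooled length only. In WT control the mean levels were 4827.5 CPM per kilobase for Actc1, 143.7 for Actg1, 127.9 for Actb, 94.1 for Acta2, 87.9 for Acta1 and 2.14 for Actg2. Acta2 and Acta1 were neighbours whose ranges overlapped, with Acta2 the higher in 2 of 5 libraries. Actg1 was above Actb in 5 of 5 WT libraries although their ranges overlapped.

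In R502W control Acta1 was second at 863.4 CPM per kilobase, behind Actc1 at 6148.8, and ahead of Actb at 126.2, Actg1 at 118.2, Acta2 at 57.2 and Actg2 at 1.06. In R502W mavacamten Acta1 was second as well, at 503.4 CPM per kilobase behind Actc1 at 6195.1. Acta1 was second in all 8 R502W libraries, and in all 5 WT libraries it was below Actc1, Actg1 and Actb, and its range overlapped neither neighbour in the R502W groups. Actb stood above Actg1 there, the reverse of WT control, in 3 of 4 libraries of each R502W group, but their ranges overlapped in all 3 groups. Actc1 supplied 91.2% ± 1.61 (SD, n = 5) of the transcripts of all 6 genes in WT control, 83.8% ± 2.84 (SD, n = 4) in R502W control and 87.8% ± 5.06 (SD, n = 4) in R502W mavacamten.

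The genes with the profile nearest to Acta1 over the 13 libraries were Edn3 (root mean square difference 0.412), Myh7 (0.447) and Myot (0.653), where the median gene differed by 1.49. They were picked for this likeness over all 13 libraries. Their rise in R502W control and their pattern among the treated libraries thus follow from the choice and are no separate results. Myh7 encodes the slow β-myosin heavy chain, the main ventricular myosin of the fetal mouse heart, and rose from 170.6 ± 38.8 CPM (SD, n = 5) in WT control to 1767.5 ± 181.3 CPM (SD, n = 4) in R502W control (log2 fold change 3.37 ± 0.29 SE, edgeR adjusted p = 2.9e-05). Like Acta1, it was highest among the treated libraries in replicate 1, at 2182.6 CPM, and lowest in replicate 3, at 599.7 CPM. Edn3, encoding the peptide endothelin 3, went from 0.486 ± 0.288 CPM (SD, n = 5) to 7.30 ± 1.62 CPM (SD, n = 4), and Myot, encoding the Z-disc protein myotilin, from 23.6 ± 3.03 CPM (SD, n = 5) to 91.6 ± 8.68 CPM (SD, n = 4). At the low level of Edn3 the 1 added to CPM before the logarithm shrinks its profile, and its rank as nearest gene may depend on that. Its fitted log2 fold change of R502W control against WT control was 3.86 ± 0.36 (SE). In the treated hearts Edn3 was at 5.34 ± 1.82 CPM (SD, n = 4) and Myot at 64.5 ± 18.99 CPM (SD, n = 4), and neither differed from R502W control beyond the threshold (edgeR adjusted p = 1 for both).

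Actc1 was far from Acta1, at 1.36. Its nearest genes were Fblim1 (0.088), Casq2 (0.096), encoding the calcium-binding protein calsequestrin of the sarcoplasmic reticulum, and Pacsin2 (0.097), and it was 0.148 from Myh6, the adult α-myosin heavy chain. Actb was nearest to Ywhaz (0.063), Cd47 (0.065) and Snx6 (0.072), and Actg1 to Tomm6 (0.059), Tmem222 (0.064) and Atp6v0e (0.067). The profiles of Actc1, Actb and Actg1 had root mean squares of 0.268, 0.109 and 0.177 themselves, beside 1.481 for Acta1. A gene that did not vary at all would lie at that distance from each, and the nearest genes lay closer. Small distances are common among genes that vary little, and the median gene lay at 0.328 from Actc1, 0.240 from Actb and 0.281 from Actg1.

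**Figure D5:**
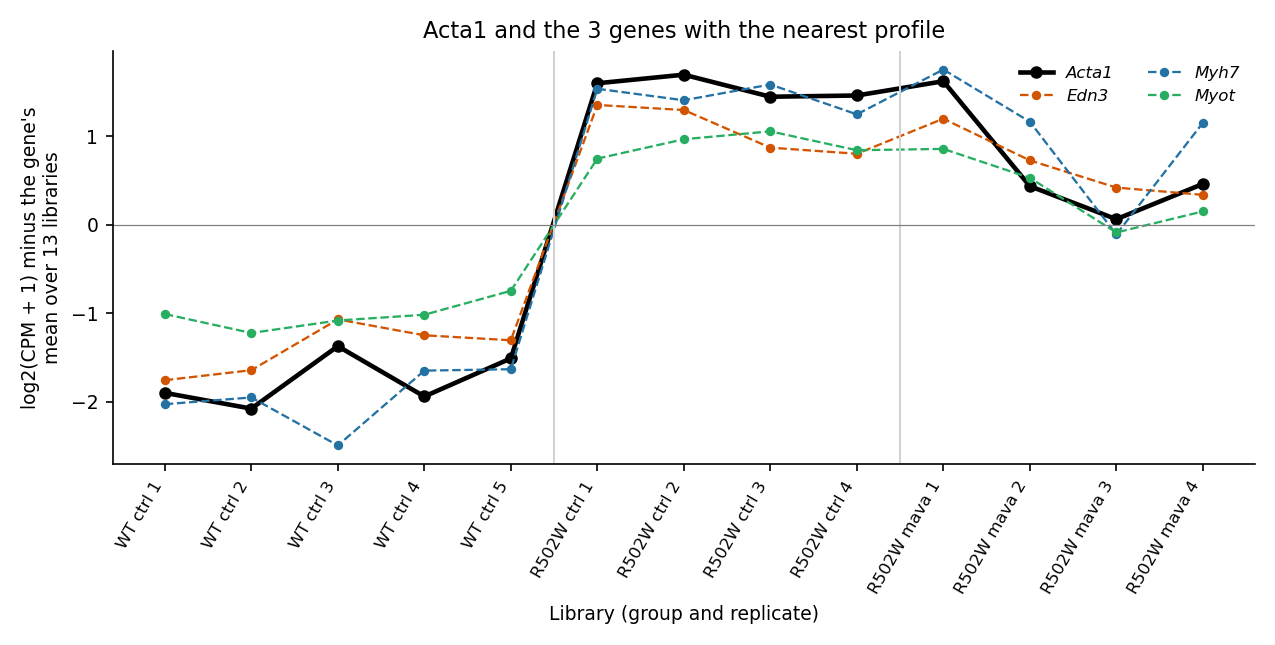
Profiles of Acta1 and of its 3 nearest genes, Edn3, Myh7 and Myot, as log2(CPM + 1) minus the mean of each gene over 13 libraries (y axis), for each library by group and replicate (x axis); lines only join the values of 1 gene, and replicates have no order. All 4 genes lie below 0 in the 5 WT libraries and above 0 in the 4 R502W control libraries, a likeness for which the 3 were chosen. The treated libraries lie above all WT libraries, and Myh7 in replicate 1, at 1.754, lies above the R502W control libraries too.

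Lists of genes that act on actin were read beside the isoforms. Among 22 genes that crosslink actin filaments or anchor them at the Z-disc and intercalated disc, 9 rose and none fell in R502W control against WT control, with a median log2 fold change of 0.32 (12.4% of all genes were called, and their median was -0.01). Xirp2, an actin-binding repeat protein of the intercalated disc, rose from 292.4 ± 50.9 CPM (SD, n = 5) to 1064.2 ± 167.8 CPM (SD, n = 4), by 1.86 ± 0.15 on the log2 scale (SE, edgeR adjusted p = 2.55e-05). Flnc, the muscle filamin, rose by 1.37, Nrap, a nebulin-related anchoring protein, by 1.05, and Xirp1 by 0.76. In R502W mavacamten against WT control 9 of 22 were called as well, all higher (8.21% of all genes were called), and Xirp2 stood at 682.4 ± 89.4 CPM (SD, n = 4). That treated count was 5 without mavacamten replicate 2 or replicate 3, 5 with the trend on gene length removed and 4 with only the groups compared.

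A list of 15 genes around SRF and its myocardin-related (MRTF) partners, called SRF regulators below, was read next. It holds Srf and the MRTF genes themselves and other muscle transcription factors such as Tead1 and Mef2c, besides regulators. Of the 15, 6 rose and none fell in R502W control, with a median of 0.33, where 12.4% of all genes tested were called. Abra, an actin-binding protein of striated muscle, rose from 18.4 ± 2.97 CPM (SD, n = 5) to 53.6 ± 7.48 CPM (SD, n = 4), by 1.54 ± 0.19 on the log2 scale (SE, edgeR adjusted p = 0.000445). Tead1, a transcription factor that binds MCAT elements of muscle genes, rose by 1.05, Myocd, the SRF coactivator myocardin, by 0.965, and Srf itself by 0.50. Scai, a named inhibitor of MRTF signalling chosen after its value was seen, was also among the 6, at 0.48. In R502W mavacamten against WT control 4 of 15 were called, all higher, with a median of 0.22, against 8.21% of all genes. This count was 1 with only the groups compared, 1 without mavacamten replicate 1, 2 or 3 and 2 without WT control replicate 3, R502W control replicate 2 or the 3 airway-gene libraries.

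Among 17 genes of actin folding and processing 1 rose and 1 fell in R502W control, a share of 11.8% that is near the 12.4% of all genes. Pfdn5, a prefoldin subunit that hands unfolded actin to the chaperonin, fell by 0.55 on the log2 scale (edgeR adjusted p = 0.00334). Setd3, the histidine methyltransferase of actin, rose by 0.26 (edgeR adjusted p = 0.0322). The 8 listed subunits of the chaperonin itself were not called. Leaving out a single library left 1 gene of the list called for 10 of the 13 libraries, the exceptions being WT control replicates 1 and 2 and mavacamten replicate 4.

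Among 29 genes of filament assembly and turnover 3 rose and 1 fell, 13.8% in all. Daam1, a formin, rose by 0.91, Wdr1, a cofactor of cofilin, by 0.40 and Actr2, a subunit of the Arp2/3 complex, by 0.24, while the actin-depolymerising factor Dstn fell by 0.32 (edgeR adjusted p = 0.0456). In R502W mavacamten against WT control Daam1, Wdr1 and Actr2 were called again, all higher. The genotype count of 4 was 2 without R502W control replicate 1, 3 or 4, without the 3 airway-gene libraries or with no filter on low counts, and 1 with the trend on gene length removed. The treated count of 3 was 1 without mavacamten replicate 2 or 3 or with that trend removed, 0 with only the groups compared and 5 with DESeq2.

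Of 10 other genes used as markers of the fetal-type or stressed heart, 3 rose and 1 fell in R502W control, and their median was -0.01. Myh7, given above, Nppb, encoding B-type natriuretic peptide (1.90), and Ankrd1, a stress-responsive ankyrin repeat protein (0.94), rose on the log2 scale. Tnni1, the fetal troponin I, fell by 1.57 from a level of 1.22 ± 0.53 CPM (SD, n = 5), so the list did not move as a block with Acta1. In R502W mavacamten against WT control 4 of 10 were called, all higher: Myh7, Nppb, Ankrd1 and Myh6, the last of which is the adult isoform in the mouse. That count was 1 with only the groups compared and 2 without WT control replicate 3 or 4, R502W control replicate 2, mavacamten replicate 2 or the 3 airway-gene libraries.

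Under mavacamten against R502W control none of the members of these 5 lists was called, as for all genes tested (0%). Their median log2 fold changes were -0.02 for folding, -0.03 for assembly, -0.01 for crosslinkers, -0.085 for the SRF regulators and -0.16 for the fetal-type genes, beside 0.00 over all genes tested.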

How the data were processed

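Whole-heart poly(A) RNA was sequenced with a strand-specific protocol, per the labels' protocols. The deposited table holds expected counts per Ensembl gene for 13 libraries, estimated with RSEM on GRCm38, per the submitters' processing notes. These notes also name cutadapt, FastQC and DESeq2 without versions. The file name gives Ensembl release 99. Aligner and strand setting are not given in the sources used here.

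After rounding, the counts were filtered with filterByExpr of edgeR 4.0.16 under R 4.3.3 (minimum count 10, minimum total 15), which kept 15000 genes. TMM factors scaled the libraries. One quasi-likelihood fit over the 13 libraries gave each group a mean, and each comparison was a contrast of it. Adjustment followed Benjamini and Hochberg across the 15000 genes, and an adjusted p under 0.05 was called. Levels are CPM on TMM-scaled library sizes, divided by the union exonic length (GENCODE M21) where genes are compared with each other. Acta1, for example, has 1536 exonic bases. The fit was checked on simulated counts.

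The labels number the samples and do not state separate mice, so each p-value rests on the spread between libraries only, which may be technical. The 22 within-group pairs of libraries differed beyond sampling noise (chi-square per degree of freedom 7.74 to 112.0). Depth per library limits precision most for Actg2.

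The members, the pathway lists and the marker lists were chosen with earlier results of these data known. Named are the 6 actins, the 3 genes nearest to each in profile (mean of at least 1 CPM), and up to 4 called members of each pathway list with the smallest adjusted p. Marker genes named beside a result, Scai and Myh6 as a comparison for Actc1 were chosen after their values were seen. Marker lists of fibroblasts, endothelium, macrophages, lymphocytes and atrium were summed as well, and their part in the actin values was not tested. The lymphocyte and thymus list summed to 384.4 CPM in WT control replicate 2, against at most 18.35 CPM in the others. That library held airway genes too and had the highest Actb (399.1 CPM), the highest Actg1 (455.4 CPM) and the lowest Actc1 (6469.8 CPM). Alternatives were RLE factors, no count filter, removal of the trend of fold change on exonic length, a replicate block, only the groups compared, DESeq2 1.42.0, leaving out each library and, added after the data were seen, leaving out 3 libraries with airway genes and using principal transcript lengths.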

Additional observations from a re-analysis of the deposited data

Results flagged for a closer look

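In 27 groups of 4 or 5 values (levels and pair shares of the actins), 2 held a library set apart from the rest of its group by more than a fixed share of the group's range, and chance flags about 1 in 20 groups. The first was the highest Acta1 level in R502W mavacamten, 1390.1 CPM in replicate 1, where the gap to the next library was 0.837 of the range. The other was the lowest share of Actb in the cytoplasmic pair in R502W control, 47.29% in replicate 4, with a gap of 0.863 of the range.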

How the results depend on the processing

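Acta1 stayed called in both comparisons with WT control under every alternative and every library left out, with log2 fold changes of 3.185 to 3.403 and of 2.038 to 2.678 over the libraries left out. In the treatment comparison it ran from -1.223 to -0.586 and was called only with the 3 airway-gene libraries left out (-1.222). With RLE factors no actin call changed. The count of called genes in the genotype comparison, 1856, was 963 with a replicate block and 631 with the block and the length trend removed, and ran from 866 to 1870 over the libraries left out, falling to 1040, 866 and 914 without R502W control replicates 1, 2 and 3. In the treatment comparison it was 0 with each library left out, 6 with DESeq2 and 7 without the airway-gene libraries, where 525 genes had an unadjusted p under 0.05 in the edgeR fit of all libraries. In R502W mavacamten against WT control, 1232 became 740 with no filter, 631 with the length trend removed, 349 with a replicate block, 165 with both, 216 with only the groups compared and 614 without the airway-gene libraries. It ran from 359 to 1213 over the libraries left out, and was 688 without WT control replicate 3, 716 without R502W control replicate 2, and 681, 359, 462 and 692 without mavacamten replicates 1 to 4. The cause of these shifts was not tested. Deviations of same-numbered libraries correlated from -0.323 to 0.253, with 1 of 12 pairs above 0.1. For libraries of different number they ran from -0.411 to 0.426, with 14 of 44 pairs above 0.1. These correlations show no likeness by replicate number but cannot settle whether the samples were paired. Among the actins the block changed no call. DESeq2 called Actg1 in both comparisons with WT control (-0.304 and -0.279), and edgeR called it in the genotype comparison without WT control replicate 5 (-0.334, range -0.334 to -0.245). Values near 0 changed sign. Actb became 0.070, 0.050 and 0.040 in the genotype comparison, and 0.077, 0.053 and 0.081 in R502W mavacamten against WT control, with the length trend removed, with the block added, and without the airway-gene libraries. Over the libraries left out Actb ran from -0.076 to 0.014, from -0.058 to 0.040 and from -0.110 to 0.013 in the comparisons by genotype, by treatment and of treated hearts with WT. In the treatment comparison Actc1 ran from -0.088 to 0.103, Acta2 from -0.159 to 0.587, Actg2 from -0.123 to 1.053 and Actg1 from -0.016 to 0.078. Without the airway-gene libraries the called members in R502W control against WT control were 8 crosslinkers, 4 SRF regulators, 3 fetal-type, 2 assembly and 1 folding gene. Over all alternatives that keep every library or drop those 3, called members in that comparison ran from 4 to 10 for crosslinkers (4 with the block and the length trend removed), 4 to 6 for SRF regulators, 3 to 5 for fetal-type, 1 to 6 for assembly and 1 to 4 for folding genes. In treated hearts against WT they ran from 4 to 9, 1 to 5, 1 to 4, 0 to 5 and 0 to 4. The mean share of Acta1 in treated hearts ran from 5.587% to 8.966%.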
